A study of Saccharomyces cerevisiae with 12 samples.

Results

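Stable unannotated transcripts (SUTs) are long non-coding RNAs (lncRNAs) of budding yeast, *Saccharomyces cerevisiae*, that accumulate in cells with intact RNA decay. The deposited annotation holds 847 SUT features, and 288 of them overlap no XUT and no CUT on the same strand. These 288 SUTs are described here. Reads in these files lie mostly on the strand opposite to the RNA, so each SUT was read from an annotated feature on the opposite strand that holds at least 0.5 of the SUT and faces no other gene. That left 101 readable loci. For 177 SUTs another gene lies along the feature to be read, and for 10 no feature holds 0.5 of the SUT, so the levels of these RNAs were not read.

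RNA was sequenced from cytoplasmic fractions and total lysates of mex67-5 xpo1-1 cells and from cytoplasmic fractions and total lysates of wild-type cells, with 3 libraries in each of the 4 groups. Every culture had been kept at 37 °C for 1 h. The GEO labels give the strain BY4741 for all samples. By the study's strain list, the mutant carries mex67-5 and xpo1-1 on plasmids in a strain whose chromosomal MEX67 and XPO1 are replaced by HIS3 and TRP1, and the wild type lacks HIS3, LEU2, MET15 and URA3. Cell walls were digested before lysis, and the cytoplasm is the supernatant left after gentle lysis and removal of the pellet. The samples of a group are stated to be biologically independent, and p-values measure the spread between these 3 cultures only.

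Mex67 is the main receptor that carries mRNA out of the nucleus, and Xpo1 (also called Crm1) is an exportin that carries proteins and some RNAs. Both alleles stop working at high temperature. CUTs (cryptic unstable transcripts) are ended early by the Nrd1-Nab3-Sen1 complex and degraded in the nucleus by the exosome with Rrp6, XUTs are degraded in the cytoplasm by the exonuclease Xrn1, and SUTs survive both routes well enough to be seen in wild-type cells. Many SUTs arise from the shared promoter region of a gene, and others start near the end of a gene and run antisense to its coding sequence.

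Library totals ran between 24532091 and 37361004 counts. Of 1800 mRNAs with an antisense feature alone on the other strand, 1610 had more reads per base on the antisense feature in wild-type total lysates, although the labels name a library kit that does not keep strand. Where a SUT faces no coding gene and was read from such an antisense feature (22 loci), 16 had more reads per base there than on the SUT feature. At 101 abundant mRNAs, the reads on the strand that should be empty were a median of 0.862 to 1.32% of those on the mRNA in mutant cytoplasm, 0.498 to 0.654% in mutant total, 0.461 to 0.7% in wild-type cytoplasm and 0.37 to 0.446% in wild-type total. Features the annotation calls intergenic took 0.496 to 0.758%, 0.265 to 0.358%, 0.2 to 0.242% and 0.165 to 0.182% of counts in the same 4 groups. These shares move in the same direction as several results below, and their part in those results was not tested. On the strand of the mRNA, MEX67 had an RPKM of 163 in mutant total and 34.3 in wild-type total.

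The 288 SUTs had a median length of 609 bases (145 to 5134). Of these, 136 lie antisense to an mRNA that covers at least 0.5 of them, 85 touch or overlap an mRNA on their own strand, 36 start within 500 bases of the start of a gene on the other strand, and 31 have none of these neighbours. Among the 85, 82 share exactly 1 base with the mRNA, because the annotation ends 1 unit where the next begins, and 67 of the 85 lie upstream of it. Antisense SUTs start close to the 3′ end of the mRNA. Their median start lies 193.5 bases inside it, and 64 of 136 (47.1%) start within 200 bases of the end, against 21.5% of XUTs and 51.6% of CUTs with the same overlap. The median GC content over the whole transcript was 39.0% for SUTs, 38.9% for XUTs, 37.3% for CUTs and 38.1% for mRNAs.

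The starts of SUTs and CUTs differ in the motif that Nab3 binds. TCTT on the transcript strand was present in the first 200 bases of 67.7% of SUTs, with a mean of 1.27 per window, against 73.5% and 1.42 for XUTs, 87.2% and 2.43 for CUTs, and 63.4% and 1.17 for mRNAs. The motifs bound by Nrd1, GTAG and GTAA on the transcript strand, had a mean of 1.59 per window in SUTs, 1.59 in XUTs, 1.89 in CUTs and 1.29 in mRNAs. The windows of 6 SUTs, 64 CUTs and 2 mRNAs shorter than 200 bases end with the transcript. Over whole transcripts TCTT stood at 7.52 per kb in SUTs, 7.73 in XUTs, 12.9 in CUTs and 5.85 in mRNAs. These are counts of letters, with no test, and regions that overlap on the genome share them. Within the readable SUTs, the number of TCTT in this window averaged 1.38 at the 21 loci that were higher in the mutant, 1.5 at the 6 that were lower and 1.16 at the 25 that passed neither way.

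**Figure D1:**
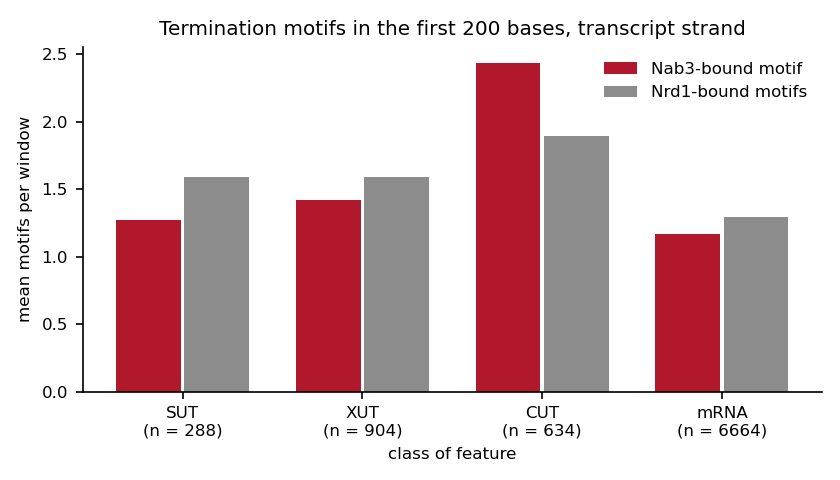
Mean number of motifs (vertical axis) on the transcript strand in the first 200 bases of SUTs, XUTs, CUTs and mRNAs, with the Nab3-bound TCTT in red and the Nrd1-bound GTAG and GTAA in grey. SUTs stand at 1.27 for TCTT, below XUTs at 1.42 and CUTs at 2.43.

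The following 30-base stretches show what such starts look like at SUTs on which the results turn. Each is the window with the most motif letters within the first 200 bases, 5′ to 3′ on the SUT strand, from the RefSeq R64 (sacCer3) genome, with TCTT, GTAG and GTAA in capitals. SUT207 has 4 copies of TCTT in the first 200 bases and SUT194 has 4 of the Nrd1 motifs, whereas SUT802 has no TCTT there.
SUT207, chrX:217597-217626, plus strand: aaattttTCTTagtgggtcaaagTCTTCTT
SUT194, chrIX:389356-389385, plus strand: aaaatgGTAAaataaaGTAAaaaaagGTAA
SUT562, chrVII:777780-777809, minus strand: gTCTTggtgtttctctgGTAAatagtGTAA
SUT307, chrXIII:511802-511831, plus strand: aactcattagattaatcgagtggtgGTAAg
SUT347, chrXV:8707-8736, plus strand: gcttgtggcgtatattgtggcgcgatGTAA
SUT802, chrXV:1064315-1064344, minus strand: agcttcgaagaatgcttttcgggaagGTAA

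Reb1 is a general regulatory factor whose binding to TTACCC can set where transcription starts or stops. That motif, on either strand and within 150 bases before to 50 after the start, was found at 45 SUTs (15.6%), against 8.41% of XUTs, 12% of CUTs and 14.5% of mRNAs. It is shown, in capitals and in the direction of the SUT, for the named loci that hold it and for SUT013, the well-known RNA antisense to GAL10, which was added after its values were seen. A match is not a bound site.
SUT013, chrII:276620-276649, plus strand: ctatcgacgataTTACCCgtaggaatcatg
SUT280, chrXII:699738-699767, plus strand: cagaataactgcTTACCCgtatttatttgc
SUT303, chrXIII:432070-432099, plus strand: ccaaataaaaagGGGTAAgagaacttttgt
SUT561, chrVII:763179-763208, minus strand: acgaaaatcattGGGTAAgtttaaatcact
SUT802, chrXV:1064505-1064534, minus strand: ctacctgatgtaTTACCCttcaccgttgac

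Levels are given as RPKM, the count per kilobase of the feature read and per megaread, with the sum of all counts as the size of the library. The median RPKM of the 101 loci was 3.04 in mutant cytoplasm, 1.41 in mutant total, 1.40 in wild-type cytoplasm and 0.870 in wild-type total, and the highest locus had 132, 45.3, 19.1 and 14.7 in the same order. The opposite strand at these loci, which carries the mRNA where there is one, had medians of 11.3, 6.80, 6.0 and 4.93. In wild-type total, 376 readable XUTs had a median of 0.859 and 247 readable CUTs one of 0.278, so the SUT median stood beside that of XUTs and above that of CUTs. The features read fit the classes unequally, with a median share of 0.578 inside XUTs and 0.477 inside CUTs, against 0.79 for SUTs. How much of the difference in level comes from this was not tested. Only 30 of 101 SUTs had more reads per base than the opposite strand over all libraries, and 24 had under 5% of it. A feature read for a SUT can be longer than the SUT: a median share of 0.79 of it lay inside the SUT, with a lowest share of 0.0352, for SUT407. A count of at most 40 on average over the libraries of a comparison kept a locus out of its test, which left 52 loci in total lysates, 50 in wild-type fractions, 67 in mutant fractions and 60 in the comparison of the ratios.

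The 6 most abundant SUTs in wild-type total were of 2 kinds. SUT329, SUT114 and SUT477 face no coding gene, and SUT228, SUT802 and SUT645 touch the start of the coding unit that follows them on their strand. SUT329 (chrXIV:355757-356585, plus strand, between YNL144C and the ammonium permease gene MEP2) had 23.5, 22.0 and 15.6 RPKM in mutant total, against 12.4, 18.8 and 13.0 in wild-type total, and the strains overlapped. SUT645, which ends where the superoxide dismutase gene SOD1 begins, had the flattest profile, with means of 11.8 ± 1.06 RPKM in mutant cytoplasm, 8.09 ± 0.629 in mutant total, 8.31 ± 2.05 in wild-type cytoplasm and 6.91 ± 1.37 in wild-type total (SD, n = 3 each), and it passed no test. The order in wild-type total was SUT329 (14.7 ± 3.51 RPKM), SUT228 (11.3 ± 0.989), SUT114 (7.14 ± 0.608), SUT477 (6.94 ± 1.07), SUT802 (6.93 ± 0.586) and SUT645 (SD, n = 3). SUT329 and SUT228 differed by less than the SD of SUT329, and the last 4 lay within 1 SD of one another.

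**Figure D2:**
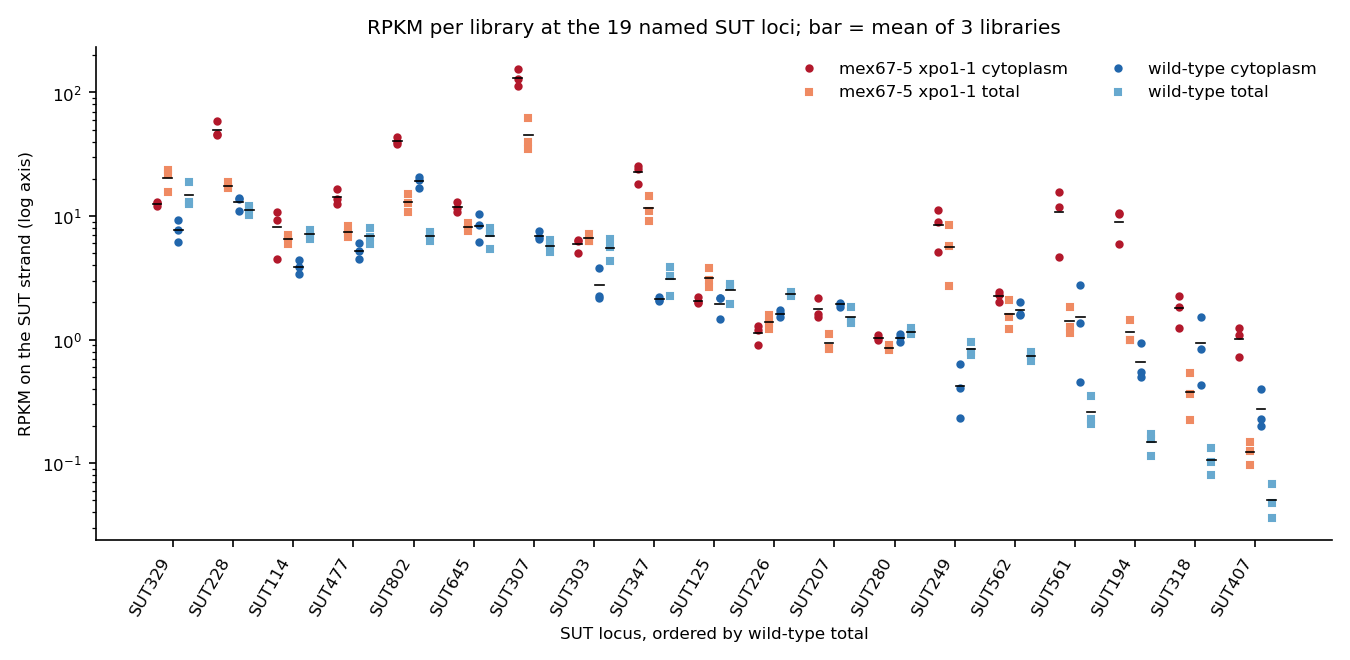
RPKM on the SUT strand (log axis) at the 19 named SUT loci, ordered by their level in wild-type total, with 1 point per library and a bar at the mean of 3 libraries. SUT307 reaches 113 to 154 in mutant cytoplasm, while SUT407 lies between 0.0361 and 0.0682 in wild-type total.

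Total lysates of the 2 strains show which SUTs differed in level between mex67-5 xpo1-1 and wild type. The strains also differ in marker genes and plasmids, and every culture had been heated. How much of a difference comes from the loss of both export receptors was therefore not tested. In mex67-5 xpo1-1, 21 of 52 tested loci (40.4%) were higher and 6 (11.5%) were lower by edgeR's quasi-likelihood test (Benjamini-Hochberg adjusted p, threshold 0.05), against 26.9% higher and 25.6% lower among all 12360 features tested. The median log2 fold change was 0.28 at SUTs and 0.0085 over all features, and the spread of the SUT median between replicates was 0.080. With a mean count above 10 the medians were 0.21 and 0.017, and with no filter 0.17 and 0.096, so that the gap of 0.27 narrowed to 0.07, less than that spread. Of the 52 loci, 8 reached the filter only through the mutant, of which 5 were higher (SUT152, SUT194, SUT249, SUT387 and SUT607). The filter favours a rise at such a locus, and its part in these calls was not tested. None of the 8 was lower, and the smallest log2 fold change among them was 0.010, at SUT591 (edgeR adjusted p = 0.98). At the other 44 there were 16 higher and 6 lower. Readable XUTs were higher at 53.2% of 201 loci with a median of 0.65, and readable CUTs at 68.5% of 54 with a median of 1.08. The filter left these from 376 readable XUTs and 247 readable CUTs, and how it moved their medians was not tested. Fold changes are after TMM normalization, which scales libraries to the bulk of features, and can differ from ratios of the RPKM.

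The largest rise was at SUT307 (chrXIII:511802-512394, plus strand), which starts on the last base of the YMR122W-A unit, a gene for a cell wall protein, and runs on downstream. It was read from CUT775, of which a share of 0.372 lies inside SUT307, so part of these reads lies beyond its annotated end. It had 39.4, 34.8 and 61.6 RPKM in mutant total, against 6.34, 5.88 and 5.09 in wild-type total, with no overlap. The log2 fold change was 2.73 (standard error 0.18, edgeR adjusted p = 6.75e-06). The feature along YMR122W-A itself, antisense3604, had 7877, 7613 and 9509 counts in mutant total and 11615, 8797 and 11101 in wild-type total, a log2 fold change of -0.57 (edgeR adjusted p = 0.00332). The SUT and the mRNA before it thus changed in opposite directions. Whether reads past the end of YMR122W-A come from an extended mRNA or from a separate SUT cannot be told apart in counts.

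SUT194 (chrIX:389224-393268, plus strand) lies inside FLO11, called MUC1 in the annotation, which encodes the cell surface glycoprotein for adhesion. It was almost silent in wild-type total, with 29, 16 and 24 counts, and entered the test only through its level in the mutant. It had 1.00, 0.996 and 1.43 RPKM in mutant total, against 0.171, 0.114 and 0.158 in wild-type total, a log2 fold change of 2.71 (standard error 0.22, edgeR adjusted p = 1.84e-05). The FLO11 strand had 66, 142 and 132 counts in mutant total and 68, 60 and 60 in wild-type total and did not pass (log2 fold change 0.60, edgeR adjusted p = 0.0763). FLO11 holds internal repeats, so its reads may be placed with less certainty.

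SUT249 (chrXII:222300-222816, plus strand) runs antisense to PAU23, a member of the seripauperin family of near-identical genes, and reads shared with other members make its level uncertain. It too entered the test only through its level in the mutant. It had 5.74, 2.73 and 8.50 RPKM in mutant total, against 0.793, 0.960 and 0.752 in wild-type total. The log2 fold change was 2.51 (standard error 0.38, edgeR adjusted p = 0.000608). The mutant libraries varied widely among themselves, yet the lowest of them lay above every wild-type library.

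SUT347 (chrXV:8646-9266, plus strand) lies near the chromosome end between BDS1, which encodes a sulfatase, and YOL163W. It faces no gene, and it was read from an antisense feature that matches it base for base. It had 11.0, 9.05 and 14.5 RPKM in mutant total, against 3.28, 2.24 and 3.84 in wild-type total, a log2 fold change of 1.64 (standard error 0.22, edgeR adjusted p = 0.000286). SUT802 and SUT228 rose less, by log2 fold changes of 0.67 (edgeR adjusted p = 0.00125) and 0.41 (edgeR adjusted p = 0.00854), and without the filter on counts SUT228 had an edgeR adjusted p of 0.0956.

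SUT802 (chrXV:1061113-1064413, minus strand) starts inside FRE5, a putative ferric reductase gene on the other strand, crosses almost all of it and ends where FIT3 begins on its own strand. FIT3 encodes a cell wall mannoprotein that retains iron carriers. SUT802 had 10.8, 12.9 and 15.0 RPKM in mutant total, against 6.28, 7.41 and 7.10 in wild-type total. FIT3, read from antisense2418, which covers 0.696 of it, moved the other way, with 685, 981 and 875 counts in mutant total and 6836, 2502 and 7770 in wild-type total (log2 fold change -2.96, edgeR adjusted p = 0.000135). The FRE5 strand fell as well, by a log2 fold change of -1.93 (edgeR adjusted p = 0.000195). At this locus the lncRNA was thus higher, and the mRNAs opposite to it and downstream of it were lower.

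All 6 lower loci but 1 run antisense to an mRNA, and the exception, SUT661, ends at the start of KDX1. SUT226 (chrXI:115075-115751, plus strand) lies in LST4, whose product acts in the control of Rag GTPases, and a share of 0.190 of the LST4 feature lies inside it. It had 1.37, 1.23 and 1.58 RPKM in mutant total, against 2.31, 2.41 and 2.24 in wild-type total, and the log2 fold change was -0.96 (standard error 0.12, edgeR adjusted p = 0.000245). The LST4 strand did not pass (log2 fold change -0.14, edgeR adjusted p = 0.383). SUT207, antisense to the pheromone-regulated gene PRM10, and SUT280, antisense to the zinc-cluster gene YLR278C, fell by 0.93 and 0.66 on the log2 scale (edgeR adjusted p = 0.00776 and 0.00340). Their reads per base were 0.0190 and 0.0323 of those on the opposite strand. PRM10 itself rose by 0.56 (edgeR adjusted p = 0.00718), so SUT207 did not follow the strand that holds most of the reads there.

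The other called loci are named for completeness and were not chosen by size. SUT600 (FLO5), SUT355 (YOL118C), SUT152 (NEM1), SUT376 (GSP2), SUT387, SUT009 (RER2), SUT607 (SDP1), SUT232 (PMU1), SUT539, SUT727 (HXT2), SUT562 (SKN1), SUT570, SUT304, SUT655 and SUT560 (PEX4) were higher in mutant total, and SUT103 (EPL1), SUT661 and SUT181 (YIL102C) were lower, where the gene in parentheses is the feature read. FLO5 and HXT2 have close paralogs, which makes their reads uncertain. Across the 27 called loci, the opposite strand was called in the same direction at 3, in the other direction at 8, tested and not called at 9 and not tested at 7. Restricted to loci with at least 5% of the reads per base of the opposite strand, an alternative chosen after seeing the data, 19 of 46 were higher and 4 lower, with a median of 0.28.

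**Figure D3:**
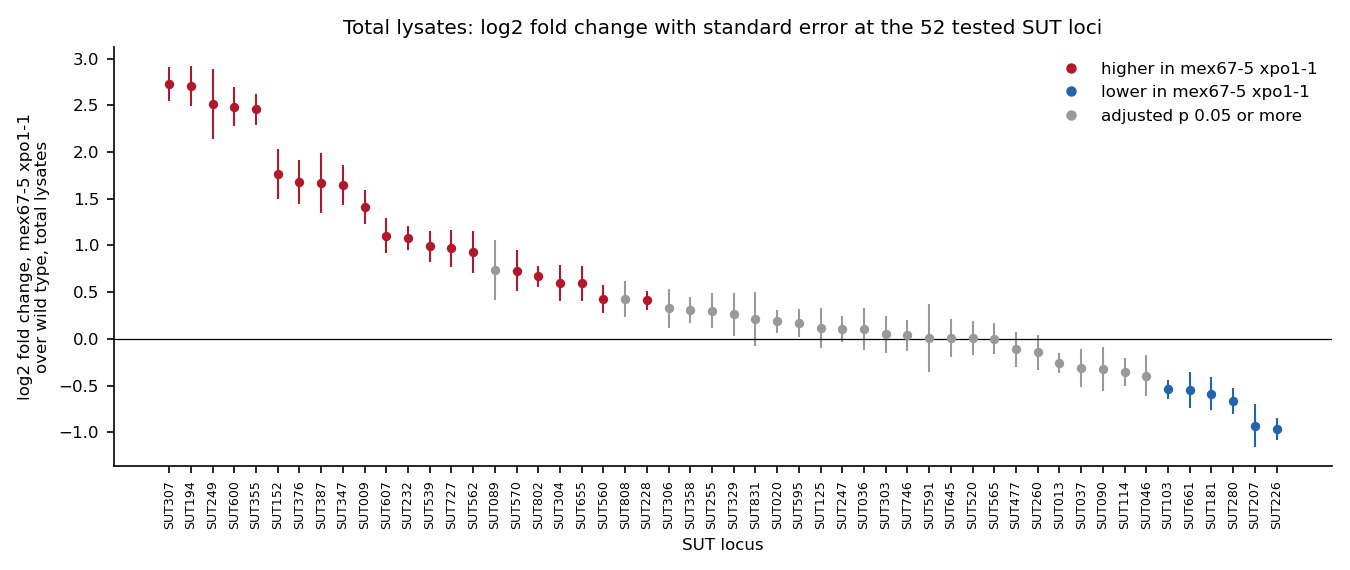
Log2 fold change of mex67-5 xpo1-1 total over wild-type total, with its standard error, at the 52 tested SUT loci in descending order. The 21 loci in red were higher and the 6 in blue were lower in the mutant at an edgeR adjusted p under 0.05, from 2.73 at SUT307 to -0.96 at SUT226.

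In wild-type cells, the comparison of cytoplasm with total asks where a SUT is found when export works. Of 50 tested loci, 16 (32.0%) were higher in the cytoplasm and 4 (8%) were lower by edgeR's quasi-likelihood test with Benjamini-Hochberg adjustment, against 22.3% and 17.6% of all 11976 features tested. The median log2 fold change was 0.14 at SUTs and 0.022 over all features, with a spread of the SUT median of 0.13 between replicates. The gap between these medians was 0.11, less than that spread. With a mean count above 10 it was 0.04 (0.070 at SUTs and 0.027 over all features), and with no filter the direction against all features turned, to -0.03 (0.065 and 0.096). Of the 50 loci, 5 reached the filter only through the cytoplasm and 4 of them were higher (SUT194, SUT318, SUT607 and SUT831). At the 45 loci above it in both fractions, 12 were higher and 4 lower. With the replicate numbers as pairs, 15 were higher and 7 lower. The count of higher loci rests on all libraries: it was 15 without cytoplasm 1, 10 without cytoplasm 2, 8 without cytoplasm 3, 10 without total 1 and 7 without total 2 or without total 3. The median was 0.055 without cytoplasm 1. In XUTs 33.3% of 183 loci were higher with a median of 0.35, and in CUTs 67.9% of 53 with a median of 1.08.

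In wild-type fractions the values differed with the position of the SUT. Among 36 tested loci read from an mRNA feature, 14 were higher in the cytoplasm and 1 was lower, with a median of 0.24. Among 9 read from an antisense feature, none was higher, 3 were lower and the median was -0.54. The 13 tested loci that touch an mRNA on their own strand had a median of 0.57, with 7 higher and none lower. At an unadjusted p under 0.05 in edgeR, and by DESeq2, these counts of 0 stayed 0. In mutant fractions, of 12 tested loci read from an antisense feature, 4 were higher, 2 were lower and the median was 0.28. Of 47 read from an mRNA feature, 17 (36.2%) were higher and 2 lower with a median of 0.41. Of 15 that touch an mRNA, 8 were higher and none lower with a median of 0.84. Over all features tested, 30% were higher and 28.7% lower in mutant fractions, and 22.3% and 17.6% in wild-type fractions. The groups come from the annotation, and the difference between them was not tested.

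SUT802 was the clearest cytoplasmic SUT. It had 19.6, 20.6 and 17.0 RPKM in wild-type cytoplasm, against 6.28, 7.41 and 7.10 in wild-type total, a log2 fold change of 1.32 (standard error 0.12, edgeR adjusted p = 0.000771). FRE5 on the other strand did not pass (0.35, edgeR adjusted p = 0.325), nor did FIT3 (-0.14, edgeR adjusted p = 0.806). SUT194 had 0.499, 0.931 and 0.545 RPKM in wild-type cytoplasm, against 0.171, 0.114 and 0.158 in wild-type total (log2 fold change 2.01, standard error 0.30, edgeR adjusted p = 0.00299). Here the opposite FLO11 strand rose by nearly as much, with 206, 252 and 271 counts in wild-type cytoplasm and 68, 60 and 60 in wild-type total (log2 fold change 1.95, edgeR adjusted p = 0.000461).

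The largest ratio, at SUT318 (chrXIII:779414-779866, plus strand), rests on few reads. SUT318 lies antisense to PET111, which encodes a translation activator for a mitochondrial mRNA, and had 35, 172 and 88 counts in wild-type cytoplasm and 16, 8 and 11 in wild-type total. The locus entered the test only through the cytoplasm, and without wild-type cytoplasm 2 it fell below the filter, so its size is a description of the locus that the filter let in. The log2 fold change was 2.98 (standard error 0.48, edgeR adjusted p = 0.00368), its reads per base were 0.0462 of those on the PET111 strand, and a share of only 0.142 of the PET111 feature lies inside SUT318. The PET111 strand did not pass (0.32, edgeR adjusted p = 0.124).

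SUT013 (chrII:276740-278855, plus strand) covers most of GAL10, which encodes an enzyme of galactose use, and was singled out after its values were seen because its RNA is a textbook antisense transcript. It had 13.0, 10.3 and 11.0 RPKM in wild-type cytoplasm, against 5.25, 5.49 and 6.25 in wild-type total, a log2 fold change of 0.88 (standard error 0.14, edgeR adjusted p = 0.00343). In mutant cells it had 14.5, 16.8 and 14.6 RPKM in cytoplasm, against 5.27, 5.03 and 6.33 in total (0.97, standard error 0.11, edgeR adjusted p = 0.000224). SUT013 was thus higher in the cytoplasm in both strains, and its total level did not pass between them (-0.26, edgeR adjusted p = 0.0630). The GAL10 strand, with 132, 123 and 182 counts in mutant total and 23, 19 and 12 in wild-type total, was higher in the mutant (2.76, edgeR adjusted p = 3.42e-05).

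The 3 SUTs with the largest loss in wild-type cytoplasm stand between genes. SUT303 (chrXIII:432118-433242, plus strand), upstream of the mitochondrial alcohol dehydrogenase gene ADH3, had 2.16, 3.82 and 2.27 RPKM in wild-type cytoplasm, against 4.29, 6.53 and 5.66 in wild-type total (-1.13, standard error 0.27, edgeR adjusted p = 0.0133). SUT329 had 6.14, 9.32 and 7.64 RPKM, against 12.4, 18.8 and 13.0 (-1.07, standard error 0.21, edgeR adjusted p = 0.00659), and SUT114 (chrVII:320004-320728, plus strand, between USE1 and SRM1) had 3.4, 4.38 and 3.84, against 6.57, 7.06 and 7.78 (-1.01, standard error 0.15, edgeR adjusted p = 0.00299). None of the 3 overlapped between the fractions. SUT303 lost the call without cytoplasm 3 (edgeR adjusted p = 0.0569), and its reads come from a feature that covers 0.516 of it. SUT226 was also lower, by 0.65 on the log2 scale (edgeR adjusted p = 0.00506).

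The other loci higher in wild-type cytoplasm were SUT009, SUT562, SUT808 (NEW1), SUT831 (TIP41), SUT464 (APC11), SUT607, SUT306 (YMR122C), SUT727, SUT260 (IOC2), SUT655, SUT661 and SUT046 (BRE1). The opposite strand at these 20 was called in the same direction at 3, in the other direction at 3, tested and not called at 10 and not tested at 4. Restricted to loci with at least 5% of the reads per base of the opposite strand, 11 of 43 (25.6%) were higher and 4 lower.

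In mex67-5 xpo1-1 cells, 25 of 67 tested loci (37.3%) were higher in cytoplasm over total and 4 (5.97%) lower by edgeR's quasi-likelihood test with Benjamini-Hochberg adjustment, against 30% and 28.7% of all 13763 features tested. The median log2 fold change was 0.41 at SUTs and -0.0066 over all features, with a spread of 0.14 between replicates. With library totals in place of TMM, 45 were higher and 2 lower and the median was 0.92, while the median of all features was 0.50, so that SUTs lay 0.42 above it, against 0.41 with TMM. With a mean count above 10 the gap was 0.20 (0.23 and 0.024), and with no filter 0.12 (0.18 and 0.062). Of the 67 loci, 10 reached the filter only through the cytoplasm, and 7 of these were higher (SUT007, SUT024, SUT161, SUT170, SUT407, SUT427 and SUT695). Another, SUT037, reached it only through total and was not called. At the 56 loci above it in both fractions, 18 were higher and 4 lower. XUTs were higher at 54.2% of 275 loci with a median of 0.65, and CUTs at 70.5% of 132 with a median of 1.08.

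SUT194 again had one of the largest ratios, with 10.3, 10.5 and 5.95 RPKM in mutant cytoplasm, against 1.00, 0.996 and 1.43 in mutant total (log2 fold change 2.46, standard error 0.20, edgeR adjusted p = 7.62e-05). Of the 4 groups it was highest in mutant cytoplasm, where the SUT strand had 1148, 1356 and 710 counts and the FLO11 strand of the locus 480, 500 and 452. In wild-type cytoplasm the order was reversed, with 58, 149 and 81 counts on the SUT strand and 206, 252 and 271 on the FLO11 strand. SUT407 in MOT1, which encodes a remover of TATA-binding protein, had the largest ratio (2.53, standard error 0.24, edgeR adjusted p = 0.000130), with 1.08, 1.24 and 0.728 RPKM in mutant cytoplasm, against 0.127, 0.0965 and 0.149 in mutant total. Only a share of 0.0352 of the long MOT1 feature lies inside SUT407, so this value describes antisense reads along MOT1 more than the SUT. SUT407 also entered the test only through the cytoplasm, with a mean count of 169.3 there and 26.7 in mutant total.

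SUT561 (chrVII:762610-763062, minus strand) lies antisense to LSB1, an inhibitor of actin assembly. It had 272, 419 and 115 counts in mutant cytoplasm, against 57, 37 and 42 in mutant total, with no overlap and a log2 fold change of 2.39 (standard error 0.40, edgeR adjusted p = 0.00116). The LSB1 strand, with 1986, 2051 and 2267 counts in mutant cytoplasm and 1981, 2112 and 2285 in mutant total, did not pass (-0.13, edgeR adjusted p = 0.392), and the reads per base of SUT561 were 0.0244 of it. SUT318 and SUT802 were higher in mutant cytoplasm too, with log2 fold changes of 1.74 (edgeR adjusted p = 0.00180) and 1.15 (edgeR adjusted p = 0.000167).

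The lower loci were SUT329, SUT125, SUT226 and SUT303. SUT329 had 12.9, 13.0 and 12 RPKM in mutant cytoplasm, against 23.5, 22.0 and 15.6 in mutant total (-1.21, standard error 0.20, edgeR adjusted p = 0.00112). SUT125 (chrVII:650835-651359, plus strand), antisense to the minor pyruvate decarboxylase gene PDC6, had 2.22, 2.0 and 1.98 RPKM in mutant cytoplasm, against 3.77, 3.04 and 2.64 in mutant total (-1.12, standard error 0.20, edgeR adjusted p = 0.00170). A share of 0.181 of the PDC6 feature lies inside SUT125. SUT226 and SUT303 fell by 0.80 and 0.66 on the log2 scale (edgeR adjusted p = 0.00374 and 0.0118), and both lost the call with library totals, at -0.29 and -0.15 (edgeR adjusted p = 0.269 and 0.558), with SUT303 also losing it without mutant total 1 (edgeR adjusted p = 0.0509).

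The other loci higher in mutant cytoplasm were SUT050 (SOK1), SUT024, SUT427 (YPR174C), SUT808, SUT046, SUT695 (YLR111W), SUT306, SUT009, SUT655, SUT260, SUT307, SUT228, SUT607, SUT007, SUT013, SUT161, SUT170 (MRPL6), SUT020 (ICS2), SUT570 and SUT347. The opposite strand at the 29 called loci was called in the same direction at 9, in the other direction at 3, tested and not called at 11 and not tested at 6. Restricted to loci with at least 5% of the reads per base of the opposite strand, 20 of 56 (35.7%) were higher and 4 lower, and the median was 0.24.

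**Figure D4:**
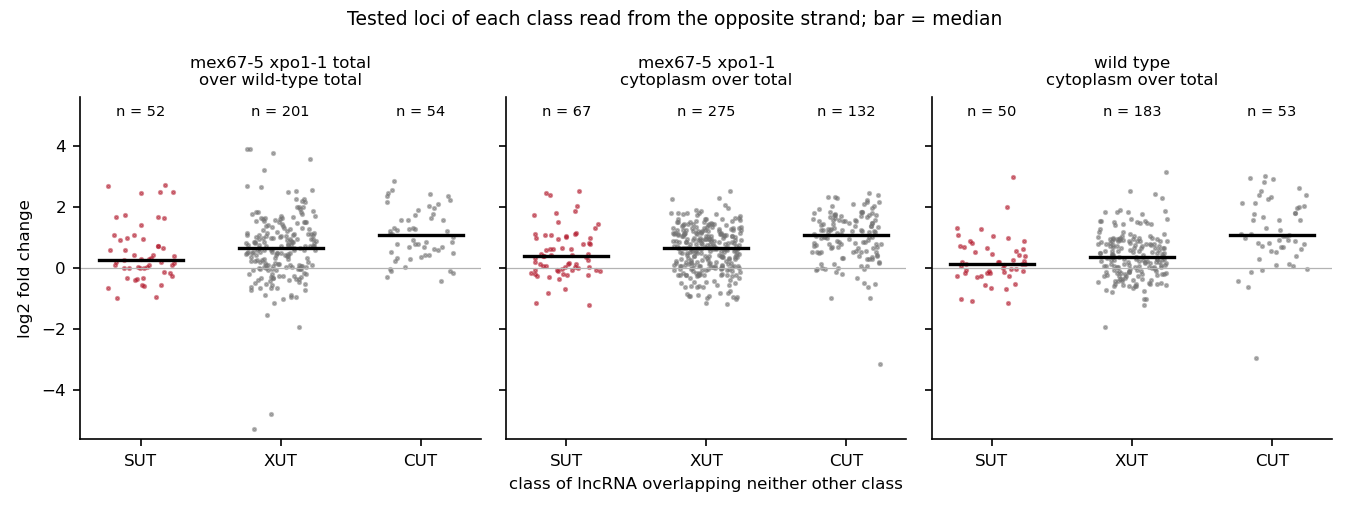
Log2 fold changes (vertical axis) of tested SUT, XUT and CUT loci read from the opposite strand, for mutant total over wild-type total, mutant cytoplasm over total and wild-type cytoplasm over total, with 1 point per locus and a bar at the median. The SUT medians are 0.28, 0.41 and 0.14, each below that of XUTs and CUTs in the same panel among loci past the count filter. In the first panel these are 52 of 101 readable SUTs, 201 of 376 XUTs and 54 of 247 CUTs. How the filter moves the XUT and CUT medians was not tested.

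The 2 fraction comparisons use no library in common. At the 48 loci tested in both strains, the log2 ratios of cytoplasm to total had a Pearson correlation of 0.770 and a Spearman correlation of 0.710, against 0.731 and 0.698 over 11848 features, given as a description across loci that share libraries within a strain. In both strains 11 loci were higher and 3 were lower in the cytoplasm, which is 48.3% of the loci called in the mutant and 70% of those called in wild type, and none was called in opposite directions. These shares were not worked out over all features, so they do not set SUTs apart.

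An interaction term tested whether the ratio itself differed by strain. Of 60 tested loci, 4 had a higher ratio of cytoplasm to total in mex67-5 xpo1-1 than in wild type and 1 had a lower one by edgeR's quasi-likelihood test with Benjamini-Hochberg adjustment, against 4.57% and 5.68% of all 13145 features, so the shares at SUTs (6.67% and 1.67%) rest on 5 loci. The median was 0.16 at SUTs and -0.10 over all features. With library totals, 7 were higher and none lower. Without 1 library, between 2 (without wild-type total 3) and 6 (without mutant cytoplasm 3) were higher.

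SUT347, SUT228, SUT477 and SUT307 had the higher ratios. SUT347 had 24.1, 25.5 and 18.2 RPKM in mutant cytoplasm, against 11.0, 9.05 and 14.5 in mutant total, while in wild type it had 2.20, 2.10 and 2.07 in cytoplasm, against 3.28, 2.24 and 3.84 in total. The change of the log2 ratio was 1.23 (standard error 0.29, edgeR adjusted p = 0.0169), and 0.0533 was the adjusted p without wild-type total 3. Within the mutant the call of SUT347 was lost in 6 alternatives, among them the leaving out of mutant cytoplasm 1 or 2 or of mutant total 1 or 2 (edgeR adjusted p between 0.0727 and 0.0934).

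SUT228 (chrXI:143163-144319, plus strand) ends where the cell wall protein gene PIR3 begins. It had 45.8, 58.8 and 45.5 RPKM in mutant cytoplasm, against 16.8, 17.0 and 18.8 in mutant total, and in wild type 13.9, 10.9 and 13.8 in cytoplasm, against 12, 10.2 and 11.7 in total. The change of the log2 ratio was 1.01 (standard error 0.20, edgeR adjusted p = 0.00878), and this call held in every alternative. SUT307 had 129, 154 and 113 RPKM in mutant cytoplasm, against 39.4, 34.8 and 61.6 in mutant total, and in wild type 6.55, 7.57 and 6.71 in cytoplasm, against 6.34, 5.88 and 5.09 in total, a change of 0.99 (standard error 0.23, edgeR adjusted p = 0.0162). The mRNA before it, YMR122W-A, changed its ratio by 0.028 and did not pass (edgeR adjusted p = 0.949). SUT307 and SUT228 were therefore level or nearly level between the fractions in wild type, and clearly higher in the cytoplasm in the mutant.

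SUT477 (chrIV:924086-924562, minus strand) lies between PCF11, which encodes a pre-mRNA cleavage factor, and IVY1, on whose upstream side it starts. It had 13.8, 16.5 and 12.5 RPKM in mutant cytoplasm, against 8.26, 7.32 and 6.75 in mutant total, and in wild type 5.17, 6.07 and 4.49 in cytoplasm, against 5.95, 6.79 and 8.07 in total. The change was 1.02 (standard error 0.26, edgeR adjusted p = 0.0250), and it lost the call without wild-type cytoplasm 3, wild-type total 2, wild-type total 3 or mutant cytoplasm 2 (edgeR adjusted p between 0.0519 and 0.0730).

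SUT562 (chrVII:775834-777854, minus strand), antisense to SKN1, a gene of cell wall glucan synthesis, had the lower ratio. It had 2.28, 2.44 and 2.02 RPKM in mutant cytoplasm, against 1.23, 2.11 and 1.54 in mutant total, and in wild type 2.01, 1.59 and 1.61 in cytoplasm, against 0.793, 0.665 and 0.740 in total. After TMM normalization the mutant ratio did not pass (-0.047, edgeR adjusted p = 0.866), the wild-type ratio did (1.11, edgeR adjusted p = 0.00313), and their difference was -1.09 (standard error 0.29, edgeR adjusted p = 0.0306). That call was lost in 9 alternatives, 8 of which leave out 1 library, any but wild-type cytoplasm 2, wild-type total 1, mutant total 1 and mutant total 3 (edgeR adjusted p between 0.0555 and 0.0883), and the reads per base were 0.0192 of those on the SKN1 strand.

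**Figure D5:**
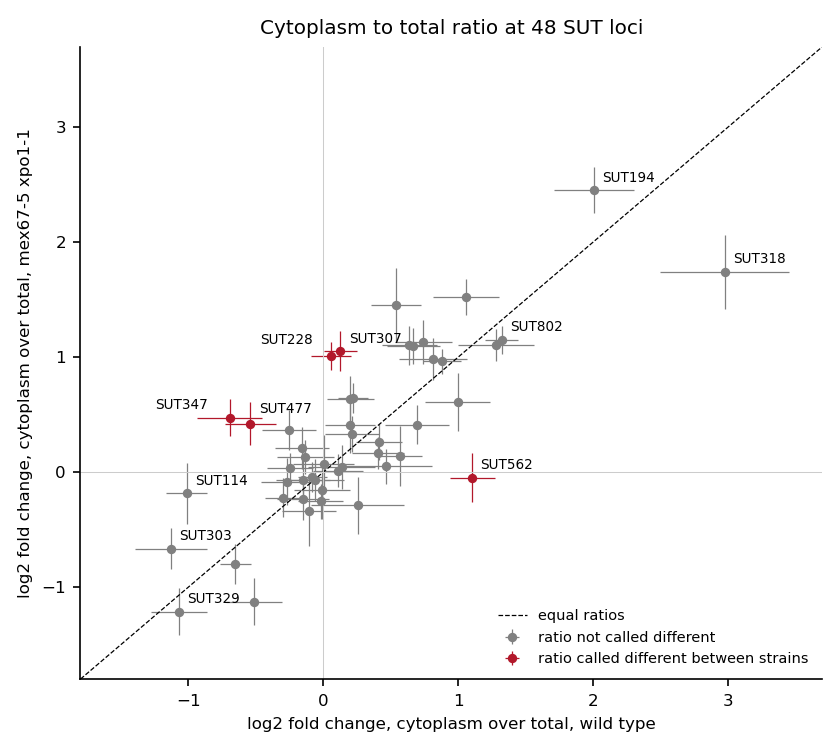
Log2 fold change of cytoplasm over total in mex67-5 xpo1-1 (vertical axis) against the same in wild type (horizontal axis) at the 48 SUT loci tested in both strains, with standard errors and a dashed line of equal ratios. SUT347, SUT477, SUT228 and SUT307 lie above the line and SUT562 below it, in red, where the interaction passed an edgeR adjusted p of 0.05.

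Factors known to export or degrade such RNAs were read in the same way from the features opposite to their genes. Of 28 listed, 12 could be tested. In mutant total against wild-type total, 3 were higher and 4 lower, against 26.9% higher and 25.6% lower among all features. MEX67 itself was higher by a log2 fold change of 2.03 (edgeR adjusted p = 3.54e-06), HRP1, whose product binds mRNA 3′ ends, by 1.10 (edgeR adjusted p = 0.000226), and UPF3, of nonsense-mediated decay, by 0.32 (edgeR adjusted p = 0.0279). XRN1, the gene of the exonuclease that gives XUTs their name, had a mean RPKM of 69.4 in mutant total and 122 in wild-type total (log2 fold change -1.04, edgeR adjusted p = 0.000325), and AIR1, of the nuclear polyadenylation complex that feeds the exosome, fell by 0.79 on the log2 scale (edgeR adjusted p = 0.00257). DIS3, which encodes an exosome nuclease, fell by 0.35 (edgeR adjusted p = 0.0257), and PAB1, which encodes the poly(A)-binding protein, by 0.46 (edgeR adjusted p = 0.0280). Between the fractions, 6 of the 12 were lower in mutant cytoplasm, against 28.7% of all features, and 1 was higher and 3 lower in wild-type cytoplasm, against 22.3% and 17.6%. In edgeR's test of the interaction, 0 passed, as in DESeq2, and 2 had a lower ratio at an unadjusted p under 0.05.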

How the data were processed

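The authors aligned 50-base single reads to sacCer3 with STAR (version 2.5.2a), counted them with featureCounts (version 1.5.0-p1) and deposited, for each of 12 libraries, raw counts. The settings for strand are not given in the sources used here. Feature ends include the estimated transcript ends of the deposited annotation. By the annotated lines alone, 297 SUTs would be members, 288 of them shared. All 6656 nuclear start codons read ATG in the reference, so its coordinates were used.

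Comparisons were fitted in edgeR (version 4.0.16, in R version 4.3.3) on the libraries compared, by the quasi-likelihood test with TMM factors, over all features with a mean count above 40, with Benjamini-Hochberg adjustment and a threshold of 0.05. The fits were first tested on simulated data. RPKM was computed from the deposited counts. In wild type, libraries with the same replicate number deviated together (correlations 0.245, 0.394 and 0.115). They did not in the mutant (0.383, -0.355 and -0.19) or between strains (0.031 to 0.057). By the study's methods, the total lysate was taken from the culture that was then fractionated. Whether equal replicate numbers mark the same culture is not stated. The main fits used no pairing in any comparison, so the p-values given for the fractions of either strain are unpaired. Alternatives were DESeq2 (version 1.42.0), library totals, other filters, the replicate block, a stricter feature, the SUT features by name and leaving out each library.

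Named loci are the 6 with the highest RPKM in wild-type total and, per comparison, up to 3 with the largest rise and 3 with the largest fall past the threshold whose groups did not overlap (no such demand on overlap in the interaction). SUT457, listed for naming, could not be read, and SUT412 and SUT719 are not among the 288. Members, lists and the reading rule were chosen with earlier results of these data known. Summaries used Python (version 3.11.15).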

Additional observations from a re-analysis of the deposited data

Results flagged for a closer look

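The ratio of cytoplasm to total was compared between mex67-5 xpo1-1 and wild type by edgeR's test of the interaction. It was higher in the mutant at 4 of 60 tested SUT loci (6.67%) and lower at 1 (1.67%). Among all 13145 features, 4.57% had a higher ratio in the mutant and 5.68% a lower one. The change of the log2 ratio was 1.01 at SUT228, 0.99 at SUT307, 1.23 at SUT347 and 1.02 at SUT477, all higher in the mutant, and -1.09 at SUT562, lower in the mutant. The call at SUT562 was lost in 9 alternatives, that at SUT477 in 4 and that at SUT347 in 1, without wild-type total 3.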

How the results depend on the processing

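Of 414 alternative values for the 35 calls at named SUT loci, 389 stayed past the threshold, 25 fell short of it and none reversed, and 19 of the 25 leave out 1 library. With library totals the mutant to wild-type total comparison gave 3 lower loci and a median of 0.49, the wild-type fractions a median of 0.27, the mutant fractions 45 higher, 2 lower and 0.92, and the interaction 7 higher, 0 lower and 0.47, while medians of all features moved to 0.23, 0.16, 0.50 and 0.20. A mean count above 10 gave 33 higher and 10 lower loci between the strains, 25 and 9 in wild-type fractions, and a median of 0.23 in mutant fractions. With no filter these were 33 and 11 with a median of 0.17 between the strains, 9 lower in wild-type fractions, a median of 0.18 in mutant fractions and 2 lower in the interaction. With the replicate block 7 loci were lower in wild-type fractions, and among named calls only SUT347 in mutant fractions was lost (edgeR adjusted p = 0.0676). The stricter feature, with at least 0.5 of it inside the SUT, gave 3 lower between the strains, 16 higher and 2 lower in mutant fractions, and median RPKM of 2.18 in mutant total and 1.52 in wild-type total. By TMM-scaled library sizes the median RPKM of wild-type total was 1.06. By the named SUT features, which hold mostly reads of the opposite strand, 43 were higher and 37 lower between the strains (median 0.016), 42 and 21 in wild-type fractions, 61 and 52 in mutant fractions (0.045), and 9 and 7 in the interaction (-0.069). At loci with at least 5% of the other strand, chosen after seeing the data, the mutant fractions had a median of 0.24 and the interaction 0 lower.

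Without 1 library in turn, 16 to 21 loci were higher, 4 to 6 lower and the median 0.19 to 0.30 between the strains. In wild-type fractions 7 to 15 were higher and 3 to 5 lower (0.055 to 0.19), in mutant fractions 21 to 28 and 3 to 5 (0.33 to 0.48), and in the interaction 2 to 6 and 0 to 1 (0.14 to 0.29), and the median RPKM was 1.39 to 1.52 in mutant total and 0.837 to 0.898 in wild-type total. Where more or fewer loci were tested, the counts changed for that reason in part. Depth limits the 101 loci. The count filter kept out 49 between the strains, 51 in wild-type fractions, 34 in mutant fractions and 41 in the interaction. At 24 of the 101 loci, the SUT strand held under 5% of the reads per base of the other strand. Counts of this kind do not show a change common to the whole library.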
